A study of Mus musculus with 6 samples.

Results

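Transcripts of 8 genes that load and present peptide on class II molecules of the major histocompatibility complex (MHC) were followed in mouse left ventricle. They were the genes of 3 class II chains (H2-Aa, H2-Ab1, H2-Eb1), of both subunits of the peptide exchange factor H2-DM (H2-DMa, H2-DMb1), of the invariant chain (Cd74), of the class II transactivator (Ciita) and of the lysosomal protease cathepsin S (Ctss). The members were taken by gene symbol from a named list, and all 8 were among the 13384 genes of the deposited table. The compared mice were 3 with a global deletion of cytoglobin, labelled Cygb(-/-), and 3 wild-type littermates, labelled Cygb(+/+). All 6 were adults and all had carried an osmotic pump under the skin that delivered angiotensin II for 2 weeks, at 1.5 mg/kg/day; the hormone raises blood pressure, and no group without it was compared. Polyadenylated RNA of the left ventricle was sequenced, with 1 mouse to a library. Strain, sex and exact age are not given in the labels.

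Class II molecules are pairs of an alpha and a beta chain that carry peptides from endosomes to the cell surface, where CD4 T cells read them. In the heart they are made mainly by macrophages, dendritic cells and B cells. The invariant chain holds the groove shut on the way to the endosome, cathepsin S trims it there, and H2-DM removes the last fragment and lets peptides exchange. Ciita is the factor whose presence largely sets class II transcription; it does not bind DNA itself but docks on the proteins that sit on the X and Y boxes of class II promoters.

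The promoters of 3 members are shown because that shared design is visible in their letters. Each line below runs 5′ to 3′ on the gene's strand over the 150 bases before the start of transcription, from RefSeq (GRCm38.p6), with an X core (GNAAC) and a Y core (TGATTGG) in capitals. The window of H2-Aa is chr17:34287824-34287973 (minus strand), that of H2-Eb1 is chr17:34305717-34305866 (plus strand) and that of H2-DMb1 is chr17:34153041-34153190 (plus strand).
H2-Aa: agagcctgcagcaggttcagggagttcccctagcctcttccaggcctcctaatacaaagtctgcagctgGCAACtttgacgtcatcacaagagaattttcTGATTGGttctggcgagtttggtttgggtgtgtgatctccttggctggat
H2-Eb1: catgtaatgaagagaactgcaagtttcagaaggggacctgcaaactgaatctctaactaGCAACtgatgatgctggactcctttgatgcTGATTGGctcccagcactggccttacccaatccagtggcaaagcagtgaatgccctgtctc
H2-DMb1: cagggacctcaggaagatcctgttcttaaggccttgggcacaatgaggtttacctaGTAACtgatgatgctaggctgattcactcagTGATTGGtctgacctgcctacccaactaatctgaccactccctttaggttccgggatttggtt
The X core began 81 bases before the start in H2-Aa, 91 in H2-Eb1 and 94 in H2-DMb1, and 26, 25 and 26 bases separated it from the Y core. The letters and the spacing allowed, 12 to 30 bases, were chosen after these promoters had been read. Searched on both strands over windows of 300 bases (250 before the start and 50 after it), the pair was in 0.56% of 32851 promoters, and the Y core alone was in 7.82%. Of 8 class II chain genes on chromosome 17 with an entry, 6 held the pair: these 3 and H2-Oa, H2-Ob and H2-Eb2. Neither of the windows listed for H2-DMa held it. Their 150 bases before the start, chr17:34122682-34122831 and chr17:34125368-34125517, lie inside the annotated span of the gene (34119541 to 34139101). Other starts of H2-DMa had no entry, so the search cannot tell whether a promoter elsewhere in the gene holds the pair. H2-Ab1, Cd74 and Ciita were without an entry.

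Ctss is shown for another element, GAAANNGAA, of the kind that interferon regulatory factors bind. Its window of 150 bases, chr3:95526636-95526785 (plus strand), has the match in capitals.
Ctss: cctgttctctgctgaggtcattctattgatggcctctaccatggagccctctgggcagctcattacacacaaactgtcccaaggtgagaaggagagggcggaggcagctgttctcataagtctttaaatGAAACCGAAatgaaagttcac
The match began 21 bases before the start. On either strand this motif was in 8.56% of the same 32851 promoters, and it was found in no window of the other members with an entry. A match of letters is a description and shows no binding.

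In GRCm38, H2-DMa (34119541 to 34139101), H2-DMb1 (34153072 to 34160230), H2-Ab1 (34257689 to 34269419), H2-Aa (34282744 to 34287823) and H2-Eb1 (34305867 to 34316674) lie in 1 stretch of chromosome 17. Cd74 lies on chromosome 18 from 60803848 to 60812652, Ciita on chromosome 16 from 10480059 to 10528418 and Ctss on chromosome 3 from 95526786 to 95556403. All are protein-coding, and each value is the deposited count of the gene. Which parts of a gene were counted is not stated. Exons of H2-DMa share 360 of 3448 bases with Brd2 on the opposite strand, and those of Ciita 329 of 9535 bases with Dexi. Whether strand was used in counting is not given in the sources used here, so reads from those shared bases cannot be told apart. Class II chains also differ between mouse strains, so reads of another haplotype than that of the C57BL/6J reference could have been counted less completely. H2-DMb1 has a close copy, H2-DMb2, which was not analysed here, and the split of reads between them is uncertain.

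Library totals ran from 23190864 to 30354857 counts. The genotype rests on the labels, as Cygb was not analysed here. Markers of ventricular muscle were abundant in every library, with the 10 listed genes summing to 79460 to 99110 CPM (counts scaled by library size). The 5 atrial markers summed to 3042 CPM in wild-type replicate 1, 2110 CPM in wild-type replicate 2, 703 CPM in wild-type replicate 3 and 494 to 568 CPM in the knockout. Nppa, the atrial natriuretic peptide gene, made up most of the sum in every library, at 2280 CPM in wild-type replicate 1. It was nearly all of the sum of wild-type replicate 2 (2060 CPM). In wild-type replicate 1 the atrial myosin light chain genes also stood apart (Myl7 at 250 CPM and Myl4 at 392 CPM, against at most 27.6 and 36.2 CPM in the other 5 libraries). The 10 fibroblast markers summed to 3441 CPM in wild-type replicate 2 against 1511 to 1870 CPM in the other 5 libraries. None of the 10 passed over all genes, but all lay below 0 in the knockout, with a median of -0.62 that was -0.066 without wild-type replicate 2. Of these, 4 (Fbln2, Meox1, Pi16 and Tcf21) were lower in every knockout library than in any wild-type library. The share of all genes that separated in that direction was not computed, so this count is a description only. Of 10 endothelial markers none passed, 8 lay below 0 and the median was -0.21 (-0.117 when knockout replicate 1 was left out and -0.133 when wild-type replicate 1 was). The part of these markers in the values below was not tested.

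None of the 8 members passed edgeR's quasi-likelihood test at an adjusted p of 0.05, where 0.112% of all genes did. The knockout mean lay above the wild-type mean for all 8, as it did for 49.4% of all genes by the fitted fold change, and the median log2 fold change of the 8 was 0.27 against -0.0045 over all genes. At an unadjusted p under 0.05, 3 members were higher in the knockout (H2-DMa, H2-DMb1 and Ctss), and this held for 10.2% of all genes. H2-DMa and H2-DMb1 were also the 2 members whose groups did not overlap, as happened in that direction for 11.8% of all genes. By DESeq2, 1 member (H2-DMa) passed the adjusted threshold, with 2.63% of all genes higher there, and by limma-voom none passed as higher, against 0.0672% of all genes. In limma-voom the same 3 members were higher at an unadjusted p under 0.05, against 10.6% of all genes. After the trend of each library on GC content and transcript length was removed, 5 members were higher at an unadjusted p under 0.05 (these 3, H2-Ab1 and H2-Eb1), against 7.34% of all genes. In bulk tissue, more cells of a type and more RNA per cell cannot be told apart.

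**Figure D1:**
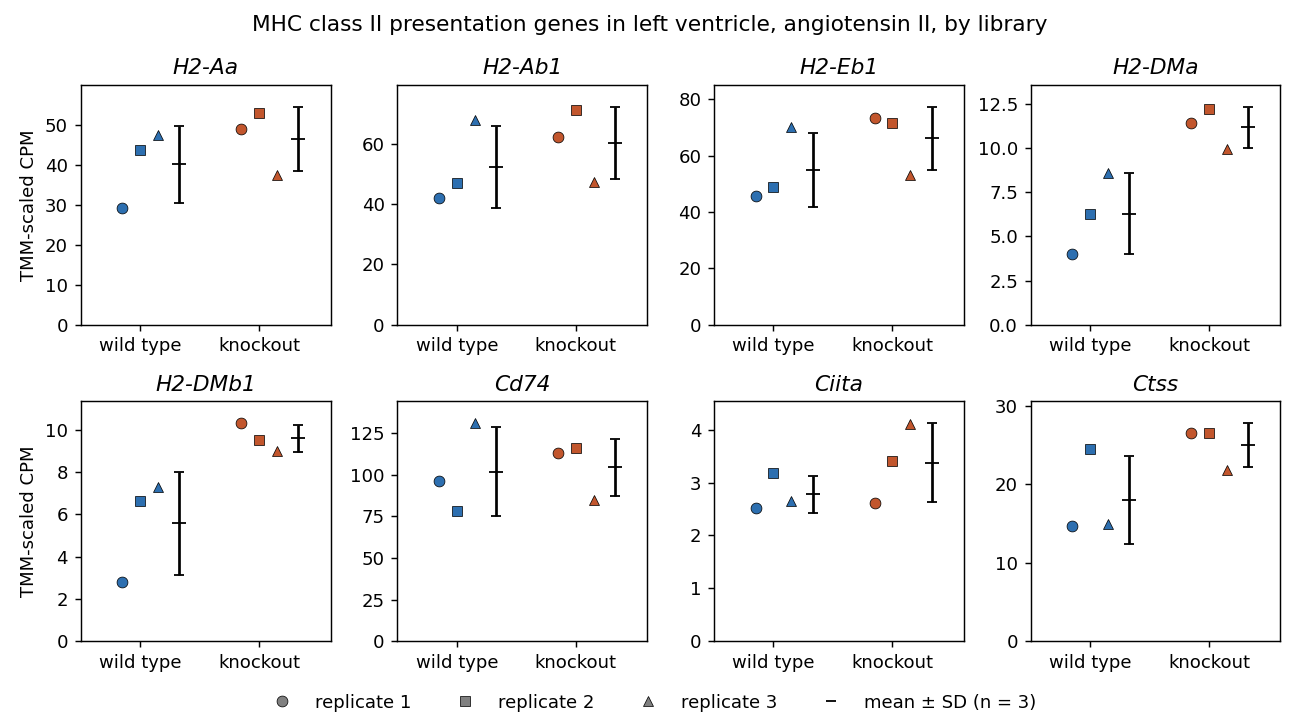
TMM-scaled CPM (vertical axes, from 0) of each of the 8 genes in the 3 wild-type (blue) and 3 knockout (orange) libraries, with marker shapes for replicate numbers and bars for mean ± SD. H2-DMa and H2-DMb1 separate the groups, at 9.92 to 12.2 and 9.0 to 10.3 CPM in the knockout against 4.03 to 8.59 and 2.80 to 7.31 CPM in the wild type, while the other 6 overlap.

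The levels here and below are TMM-scaled CPM, that is, counts divided by a library size that has been corrected for composition. H2-DMa, the alpha subunit of the peptide exchange factor, was at 11.4, 12.2 and 9.92 CPM in knockout replicates 1, 2 and 3 and at 4.03, 6.24 and 8.59 CPM in the wild-type replicates. Every knockout library lay above every wild-type library, and wild-type replicate 1 was the lowest. The means were 11.2 ± 1.17 and 6.29 ± 2.28 CPM (SD, n = 3 each), a log2 fold change of 0.82 (SE 0.24, or 1.77-fold; adjusted p = 0.117 by edgeR, unadjusted 0.00504). Without wild-type replicate 1 the log2 fold change was 0.59 (SE 0.21, adjusted p = 0.223 by edgeR, unadjusted 0.0144). It was 1.12 without wild-type replicate 3 (adjusted p = 0.138 by edgeR).

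H2-DMb1, the beta subunit that pairs with it, was at 10.3, 9.53 and 9.0 CPM in the knockout and at 2.80, 6.63 and 7.31 CPM in the wild type. The knockout libraries were close together and the groups did not overlap, with wild-type replicate 1 again far below the rest. The means were 9.59 ± 0.630 and 5.58 ± 2.43 CPM (SD, n = 3 each), a log2 fold change of 0.78 (SE 0.29, or 1.71-fold; adjusted p = 0.182 by edgeR, unadjusted 0.0196). Without wild-type replicate 1 it was 0.46 (SE 0.20, adjusted p = 0.282 by edgeR, unadjusted 0.0353). The coefficient of variation between mice was 6.57% in the knockout and 43.6% in the wild type for H2-DMb1, and 10.5% and 36.2% for H2-DMa.

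Ctss, the protease that cuts the invariant chain in macrophages and dendritic cells, was at 26.6, 26.6 and 21.8 CPM in the knockout and at 14.7, 24.5 and 14.9 CPM in the wild type. Wild-type replicate 2 lay among the knockout libraries, so the groups overlapped. The means were 25.0 ± 2.77 and 18.1 ± 5.63 CPM (SD, n = 3 each), a log2 fold change of 0.47 (SE 0.20, adjusted p = 0.223 by edgeR, unadjusted 0.0333). Without wild-type replicate 2 it was 0.77, past the threshold (adjusted p = 0.00952 by edgeR), where 7.25% of all genes passed as higher. Its unadjusted p lay above 0.05 without wild-type replicate 1 (0.116), wild-type replicate 3 (0.139), knockout replicate 1 (0.0938) or knockout replicate 2 (0.105).

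None of the genes of the surface chains separated the groups. H2-Aa, the alpha chain of the I-A molecule, was at 49.0, 52.9 and 37.5 CPM in the knockout and 29.2, 43.7 and 47.4 CPM in the wild type. H2-Ab1, its beta chain, was at 62.2, 71.1 and 47.3 CPM in the knockout and 42.0, 47.1 and 67.8 CPM in the wild type. For both genes knockout replicate 3 lay among the wild-type libraries and wild-type replicate 1 was the lowest of all. The log2 fold changes were 0.21 (SE 0.19, adjusted p = 0.554 by edgeR) for H2-Aa and 0.20 (SE 0.19, adjusted p = 0.588 by edgeR) for H2-Ab1, so neither difference was beyond the spread between mice. Without wild-type replicate 1 they were 0.029 and 0.067.

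H2-Eb1, the beta chain of the I-E molecule, was at 73.5, 71.7 and 53.2 CPM in the knockout and 45.7, 49.0 and 70.1 CPM in the wild type. Wild-type replicate 3 was close to the upper knockout libraries, and the log2 fold change was 0.27 (SE 0.18, adjusted p = 0.434 by edgeR). Its partner, the I-E alpha chain, was not analysed here. Without wild-type replicate 3 the log2 fold change was 0.48 for H2-Eb1 (adjusted p = 0.310 by edgeR) and 0.43 for H2-Ab1 (adjusted p = 0.373 by edgeR). H2-Eb1 was instead at 0.15 without wild-type replicate 1 (adjusted p = 0.730 by edgeR).

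Cd74, the invariant chain, was at 113, 116 and 85.0 CPM in the knockout and 96.3, 78.5 and 131 CPM in the wild type. The highest and the lowest library were both wild type. The means were 105 ± 17.1 and 102 ± 26.7 CPM (SD, n = 3 each), and the log2 fold change was 0.037 (SE 0.18, adjusted p = 0.933 by edgeR). Its sign turned without wild-type replicate 1 or 2 or knockout replicate 1 or 2, in a range of -0.11 to 0.26 over the libraries left out.

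Ciita, the transactivator, was the least abundant member, with 61 to 93 counts a library. It was at 2.61, 3.41 and 4.10 CPM in the knockout and 2.51, 3.18 and 2.65 CPM in the wild type, so that knockout replicate 1 lay among the wild-type libraries. The log2 fold change was 0.28 (SE 0.26, adjusted p = 0.578 by edgeR), and its unadjusted edgeR p was above 0.05 whichever library was left out. Per kilobase of annotated exon, the mean level over the 6 libraries was 0.323 CPM for Ciita, 2.53 for H2-DMa, 4.51 for H2-DMb1, 11.4 for H2-Aa, 15.9 for Ctss, 21.9 for H2-Ab1, 31.1 for H2-Eb1 and 61.5 for Cd74. On the length of the longest transcript in place of all exons, Cd74 (73.2) was again highest and Ciita (0.513) lowest, but H2-Ab1 (46.4) lay above H2-Eb1 (36.3), so the order of those 2 depends on the gene model.

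**Figure D2:**
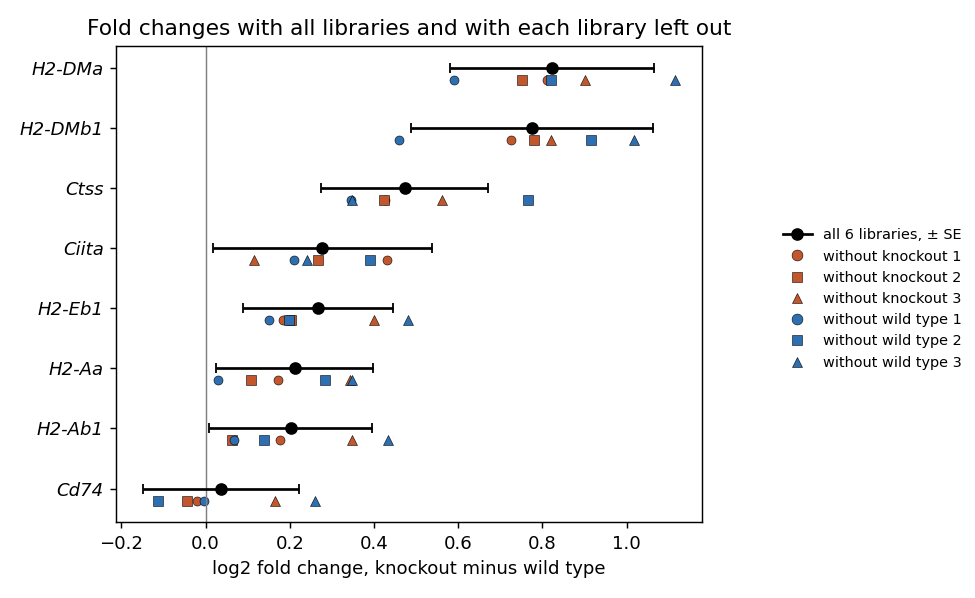
Log2 fold change of each gene, knockout minus wild type (horizontal axis), with all 6 libraries (black, ± SE) and with each library left out (coloured markers below). H2-DMa stays between 0.59 and 1.12 and H2-DMb1 between 0.46 and 1.02, and Cd74 falls on both sides of 0.

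Some libraries ranked alike across the members. Wild-type replicate 1 was the lowest library for 7 members, and wild-type replicate 2 for Cd74. Knockout replicate 2 was among the 2 highest libraries for all 8. Summed over the members, the level was 348, 364 and 268 CPM in the knockout and 237, 259 and 350 CPM in the wild type, so that wild-type replicate 3 stood with knockout replicates 1 and 2. Wild-type replicate 1, the lowest for most members, is also the library whose atrial myosin light chain genes stood apart. The part of that in the result was not tested.

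Ratios between members within a library do not depend on how libraries are scaled. The log2 ratio of H2-Aa to H2-Ab1 was -0.34, -0.43 and -0.33 in the knockout and -0.52, -0.11 and -0.51 in the wild type, a spread of 1.33-fold over the 6 mice. H2-Eb1 to H2-Ab1 varied by 1.17-fold and H2-DMa to H2-DMb1 by 1.53-fold. The genotype means of these 3 log2 ratios differed by 0.014, 0.065 and -0.008 (knockout minus wild type), and the groups overlapped for each. Ciita to H2-Aa varied by 2.05-fold (difference 0.035) and Ctss to Cd74 by 2.74-fold (difference 0.45). With 1 library left out, the difference for Ctss to Cd74 lay between 0.141 (wild-type replicate 3 left out) and 0.869 (wild-type replicate 2 left out), and that for H2-Aa to H2-Ab1, H2-DMa to H2-DMb1 and Ciita to H2-Aa took either sign.

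The exchange factor was also set against the molecules it acts on. The log2 ratio of H2-DMa to H2-Ab1 was -2.45, -2.54 and -2.25 in the knockout and -3.38, -2.92 and -2.98 in the wild type, with no overlap. H2-DMa to Cd74 was -3.31, -3.25 and -3.10 in the knockout and -4.58, -3.65 and -3.93 in the wild type, again with no overlap. For H2-DMb1 the ratios to H2-Ab1 (-2.60, -2.90 and -2.39 against -3.91, -2.83 and -3.21) and to Cd74 (-3.46, -3.61 and -3.24 against -5.10, -3.57 and -4.16) overlapped, since wild-type replicate 2 lay among the knockout libraries. These 4 ratios were chosen after the values had been seen and are given without a test.

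**Figure D3:**
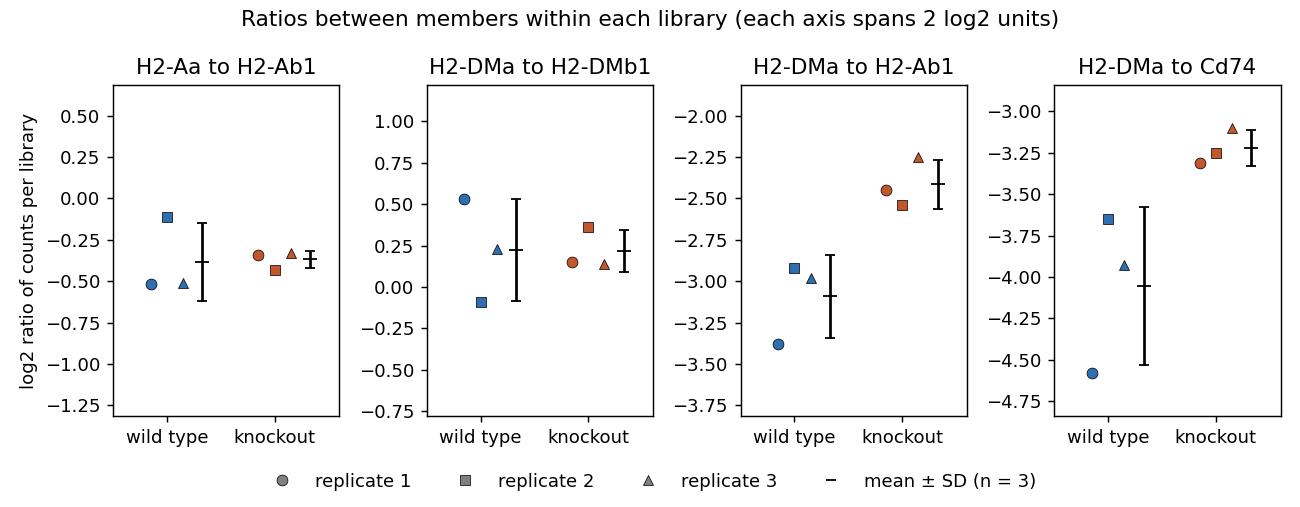
Log2 ratio of counts between 2 members in each library (vertical axes, each spanning 2 log2 units) for wild type (blue) and knockout (orange), with mean ± SD. The ratio within each complex overlaps between the groups, whereas H2-DMa to H2-Ab1 lies at -2.54 to -2.25 in the knockout and -3.38 to -2.92 in the wild type. The ratios of H2-DMa to H2-Ab1 and to Cd74 were chosen after the values had been seen. The same ratios of H2-DMb1, which are not drawn, overlap between the groups.

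Markers of leukocytes were set beside these values, because leukocytes are the main class II cells. Ptprc, which encodes the pan-leukocyte protein CD45, was at 15.2, 13.4 and 17.7 CPM in the knockout and 8.52, 12.4 and 10.6 CPM in the wild-type libraries (log2 fold change 0.55, SE 0.18, adjusted p = 0.140 by edgeR). Of 8 pan-leukocyte genes none passed over all genes, 6 lay above 0 and the median was 0.22, which was 0.067 without wild-type replicate 1 but 0.369 if wild-type replicate 2 was left out instead. Their sum was 119 to 121 CPM in the knockout and 89.5 to 117 CPM in the wild type, lowest in wild-type replicate 1. Of 14 macrophage and monocyte genes none passed, 10 lay above 0 and the median was 0.19 (0.087 without knockout replicate 2), with sums of 322 to 356 CPM against 274 to 315 CPM. The scavenger receptor gene Cd163 (0.91, SE 0.17, adjusted p = 0.0562 by edgeR) was higher and the chemokine receptor gene Cx3cr1 (-0.69, SE 0.27, adjusted p = 0.203 by edgeR) lower in every knockout library than in any wild-type library. The part of these markers in the class II values was not tested.

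The log2 ratio of each member to Ptprc was then taken. Its mean, knockout minus wild type, was -0.34 for H2-Aa, -0.35 for H2-Ab1, -0.28 for H2-Eb1, -0.51 for Cd74, -0.30 for Ciita and -0.054 for Ctss, and it was 0.33 for H2-DMa and 0.34 for H2-DMb1. Without wild-type replicate 1 it was 0.042 for H2-DMb1 and 0.185 for H2-DMa, which reached its lowest value, 0.163, without knockout replicate 2. Without knockout replicate 3 it was -0.085 for H2-Aa, -0.083 for H2-Ab1, -0.032 for H2-Eb1, -0.262 for Cd74 and 0.144 for Ctss, whose sign thus turned. For Ciita it was -0.134 without knockout replicate 1. All 8 overlapped between the groups. Over these and the 6 planned ratios between members, 14 in all, the two-sided exact permutation p lay between 0.2 and 1, and between 0.8 and 1 after Benjamini-Hochberg adjustment; 3 mice against 3 cannot go below 0.1.

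Markers of dendritic cells and B cells were low where they were measured. For dendritic cells 5 of 11 listed genes were in the table, with sums of 19.0 to 22.0 CPM in the knockout and 20.2 to 23.3 CPM in the wild type and a median of -0.12, which turned sign without wild-type replicate 1 (0.067). None passed over all genes; the integrin gene Itgax was at 0.71 (SE 0.29, adjusted p = 0.207 by edgeR), and the defining gene Flt3 was not analysed here. For B cells 5 of 10 were in the table, with sums of 13.8 to 22.0 CPM against 14.5 to 21.6 CPM and a median of -0.15, which turned sign without knockout replicate 1 (0.073). Cd79a, part of the B cell receptor, was at 0.773 ± 0.282 CPM against 0.919 ± 0.189 CPM (SD, n = 3 each). Igkc, the kappa light chain constant gene, was at 0.97 (SE 0.38, adjusted p = 0.196 by edgeR) with overlapping groups. Of the 10 T cell genes none was analysed here. Recruited monocyte genes had a median of 0.11 over 5, all above 0 and none past the test, and it lay between 0.015 (wild-type replicate 1 left out) and 0.252 (wild-type replicate 2 left out). Ly6c2 was at 0.60 (SE 0.27, adjusted p = 0.255 by edgeR) and Ccr2 at 0.045 (SE 0.22, adjusted p = 0.931 by edgeR).

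Upstream of Ciita, interferon-gamma signals through JAK kinases. Of 12 listed genes 10 were in the table; none passed over all genes, 7 lay above 0 and the median was 0.14. The kinase genes Jak2 (0.32, SE 0.14, adjusted p = 0.231 by edgeR) and Jak1 (0.27, SE 0.12, adjusted p = 0.258 by edgeR) separated the groups. So did the receptor gene Ifngr2 (0.20, SE 0.115), each as higher in the knockout, where 11.8% of all genes did. Usf1 (-0.20, SE 0.13) separated them as lower in the knockout. Irf1, a factor that acts on a Ciita promoter, did not separate them (0.079, SE 0.13). Ifng itself was not analysed here.

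Factors that bind the class II promoters or modify their chromatin had a median of 0.042 over 11 genes (0.007 to 0.094 with 1 library left out), 6 above 0 and none past the test. Subunits of the RFX complex on the X box lay below 0: Rfxank at -0.34 (SE 0.15, adjusted p = 0.250 by edgeR), Rfx5 at -0.25 (SE 0.20, adjusted p = 0.520 by edgeR) and Rfxap at -0.046 (SE 0.17). The NF-Y subunit genes of the Y box were at 0.17 (Nfyc), 0.042 (Nfya) and -0.020 (Nfyb). Those of the acetyltransferases that Ciita recruits were at 0.45 for Ep300 (SE 0.18, adjusted p = 0.196 by edgeR) and 0.34 for Crebbp (SE 0.15, adjusted p = 0.253 by edgeR).

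Endosomal proteases and processing genes showed no shared direction, with 5 of 12 above 0, a median of -0.0056 (-0.076 to 0.116 with 1 library left out) and none past the test. Cst3, which encodes the cathepsin inhibitor cystatin C, was at 249 ± 24.9 CPM against 320.2 ± 26.6 CPM (-0.36, SE 0.13, adjusted p = 0.162 by edgeR; n = 3 each). Sppl2a, the protease that clears the membrane stub of the invariant chain, was at 75.1 ± 1.40 CPM against 56.2 ± 11.5 CPM (0.42, SE 0.15, adjusted p = 0.162 by edgeR; n = 3 each). Both separated the groups, as did the cathepsin genes Ctsd (-0.16, SE 0.12) and Ctsh (0.20, SE 0.13) and the legumain gene Lgmn (0.16, SE 0.12). In the higher direction 11.8% of all genes did so, and the share in the lower direction was not computed. Ifi30, the thiol reductase of endosomes, was at 0.11 (SE 0.23). H2-Ob, a subunit of the H2-O inhibitor of H2-DM, was the 1 further class II chain gene in the table, at 1.48 ± 0.450 CPM against 1.39 ± 0.668 CPM (0.074, SE 0.39, adjusted p = 0.936 by edgeR; n = 3 each).

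H2-DMa and H2-DMb1 adjoin genes of class I processing on chromosome 17. In order along the chromosome, the log2 fold changes were 0.046 for the chromatin reader gene Brd2, 0.82 for H2-DMa, 0.78 for H2-DMb1, 0.79 for the immunoproteasome gene Psmb9, 0.59 for the peptide transporter gene Tap1 and 0.75 for Psmb8. Further on they were 0.23 for Tap2, 0.074 for H2-Ob, 0.20 for H2-Ab1, 0.21 for H2-Aa and 0.27 for H2-Eb1. The 5 neighbouring genes from H2-DMa to Psmb8 separated the groups without overlap, as 11.8% of all genes did in that direction, and none passed after adjustment (adjusted p = 0.0795 to 0.182 by edgeR). The other 6 overlapped. The annotated spans of Psmb9 and Tap1 overlap, and reads from the shared bases cannot be told apart. Over 15 neighbours of the class II genes in the table, 5 lay above 0 and the median was -0.20. With 1 library left out it lay between -0.323 (wild-type replicate 2) and -0.14 (wild-type replicate 1).

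**Figure D4:**
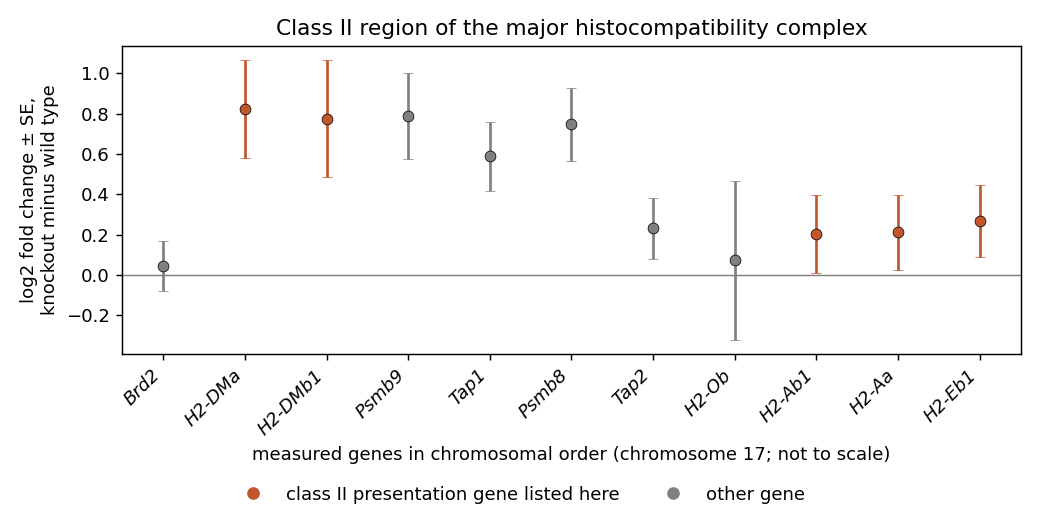
Log2 fold change ± SE, knockout minus wild type (vertical axis), of the 11 measured genes from Brd2 to H2-Eb1 in chromosomal order (horizontal axis, not to scale), with class II presentation genes in orange. The 5 genes from H2-DMa to Psmb8 lie between 0.59 and 0.82, and the 5 from Tap2 to H2-Eb1 between 0.074 and 0.27.

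Class I presentation, which shows peptides from the cytosol to CD8 T cells, shares interferon control with class II. Of its 9 listed genes 8 lay above 0 with a median of 0.38 and none passed. Psmb8, Psmb9, Tap1 and Tap2 among them are the same genes as in the region above. The class I heavy chain genes H2-K1 (0.16, SE 0.14) and H2-D1 (0.076, SE 0.14) overlapped between the groups, and so did Tapbp (-0.30, SE 0.13). B2m was at 0.38 (SE 0.14). Nlrc5, the class I counterpart of Ciita, was at 6.62, 7.74 and 6.13 CPM in the knockout and 3.99, 3.99 and 3.96 CPM in the wild type (0.78, SE 0.20, adjusted p = 0.0903 by edgeR).

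The genes whose log2 level over the 6 libraries was most like the mean of H2-Aa, H2-Ab1, H2-Eb1 and Cd74 were Snrnp35 (Pearson r = 0.98), Casp4 (0.98), Slc7a6os (0.98), Mtmr14 (0.97), Frg1 (0.96), Zfp385b (0.96), Ncaph (0.96) and Tnfaip8l1 (0.95). With each genotype's mean subtracted they were Ppie, Frg1, Pfdn4, Rerg, Rpl32l, Hpcal1, Fis1 and Zfp444 (r of 0.99 to 1), and 86 genes had an r above 0.95. These 16 places were picked as the highest of the whole table over 6 points, so they are a description only. None of the listed leukocyte genes was among them, and Ptprc was at 0.22 over the 6 libraries and -0.16 with the genotype means subtracted. Of the other leukocyte genes looked at, Cd52 was at 0.51, Lyz2 at 0.46, Cd68 at 0.44 and Cd163 at 0.028 over the 6 libraries. With the genotype means subtracted these were at 0.45, 0.38, 0.31 and -0.83.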

How the data were processed

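The deposited table holds unnormalized counts of 13384 genes in 6 libraries, the smallest being 12. Per the submitters' processing notes, mm10 and DESeq2 were used; aligner, counter, filter and strand setting: not given in the sources used here. Counts were fitted whole in edgeR 4.0.16 (R 4.3.3): TMM size factors, the tool's filter on low counts (0 genes removed), robust quasi-likelihood test, knockout against wild type without covariates. Tests were two-sided, with Benjamini-Hochberg adjustment over all genes and a threshold of 0.05. The code was tested on simulated data. Alternatives used DESeq2 1.42.0, limma 3.58.1 (voom), other size factors, filters and thresholds, a replicate block, each library left out, and splines (4 degrees of freedom) on GC content and length, known for 94.2% of genes (GENCODE M21). The members, lists and tests were chosen with earlier results of these data known. All members are named, with up to 4 genes of smallest p and the defining genes per list, and the 8 genes most alike in pattern by each measure; 1 gene is not reported here. The biological coefficient of variation was 0.166; spread includes that between mice.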

Additional observations from a re-analysis of the deposited data

How the results depend on the processing

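The count of members past the threshold was 0 with RLE or upper quartile size factors, other filters, limma-voom, estimation without robustness, the replicate block, the GC content and length correction or an adjusted p of 0.10. It was 1 with DESeq2 (H2-DMa, adjusted p = 0.0356), and 0 to 1 with a library left out, the 1 being Ctss without wild-type replicate 2. Members at an unadjusted p under 0.05, 3 in the edgeR fit, numbered 5 after the GC content and length trend was removed (H2-Ab1 and H2-Eb1 added, at 0.47 and 0.38) and 1 to 4 with a library left out, with 1 (H2-DMa) without knockout replicate 1. Of 119 alternative fold changes of single members 113 kept sign and side of the threshold. Cd74 turned sign without 1 of 4 libraries (-0.021, -0.045, -0.003 and -0.11, in a range of -0.11 to 0.26), and was at 0.29 after the GC content and length correction. Its cause was not tested.

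Over all genes 15 passed (12 higher, 3 lower). The count was 8 among genes of at least 5 CPM, 618 with DESeq2, 41 (25 higher, 16 lower) after the GC content and length correction, 318 at an adjusted p of 0.10, and 0 to 1826 with a library left out, 1826 being without wild-type replicate 2. With the replicate number as a block it was 218 and no member's call changed. The labels give no pairing of the mice. The deviations from the group means correlated at -0.12, -0.075 and -0.15 for same-numbered libraries, and no library correlated best with its own number. With 3 mice a group, these correlations cannot tell whether the numbers pair the mice. At 61 to 93 counts, counting error adds to the spread for Ciita.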

Other observations

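Costimulatory and turnover genes, which set how a class II signal is received and how long it lasts, were listed as well. Of 9 costimulation genes 5 were in the table, with a median log2 fold change of -0.33 and none past the edgeR test; that median lay at -0.067 when wild-type replicate 1 was left out, at -0.079 when knockout replicate 3 was and at -0.20 when knockout replicate 1 was. Icosl was at 11.6 ± 2.52 CPM in the knockout against 7.98 ± 2.20 CPM (0.54, SE 0.23, adjusted p = 0.228 by edgeR), Icam1 at 14.0 ± 2.12 CPM against 17.6 ± 0.558 CPM (-0.34, SE 0.15, adjusted p = 0.258 by edgeR), Cd86 at 0.27 (SE 0.25) and Cd40 at -0.33 (SE 0.27). Of 5 genes of class II surface turnover none passed, with a median of -0.037 that lay between -0.085 and 0.003 with 1 library left out. Marchf1, the ubiquitin ligase that sends class II for degradation, was at 0.57 (SE 0.36, adjusted p = 0.396 by edgeR) with overlapping groups, and the tetraspanin gene Cd82 at -0.26 (SE 0.16, adjusted p = 0.390 by edgeR) without overlap.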
